A study of Sus scrofa with 4 samples.

Results

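Secreted WNT antagonists are extracellular proteins that limit WNT signalling, and their RNA was followed here in porcine fetal fibroblasts whose label says that they over-express BRG1. The 9 genes are SFRP1, SFRP2, SFRP4, SFRP5 and FRZB of the secreted frizzled-related proteins, DKK1, DKK2 and DKK3 of the Dickkopf family, and WIF1. They were found by symbol among the 35670 genes listed, and all 9 had a row. They were selected on their CPM and log2 fold changes between the same 2 groups in these libraries, which were already known, so their levels and fold changes are given as a description, and no p-value of theirs is offered as support.

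The cells were skin fibroblasts of pig fetuses, starved of serum, from which RNA was sequenced in 2 libraries per group. Controls carry the genotype label WT and the other cells the label BRG1-overexpressed. The name pTK-642 stands in the titles of both groups and is not explained in the sources used here, so whether the controls carry a vector is not known. BRG1 is the ATPase of the BAF chromatin remodelling complex, and the study asked how more of it in donor cells bears on chromatin and on cloned embryos. Nothing in the labels says that libraries of a group are separate cultures, so the spread between them may be technical.

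WNT proteins bind frizzled receptors together with the co-receptors LRP5 and LRP6, and in the canonical branch this stabilises beta-catenin, which then acts with TCF and LEF factors on target genes. Secreted frizzled-related proteins carry a cysteine-rich domain like that of the frizzled receptors and bind WNT proteins outside the cell, and WIF1 binds them through a domain of its own. The Dickkopf proteins DKK1 and DKK2 act on the co-receptors instead, with KREMEN proteins as partners, while the part of DKK3 is less settled. In skin, fibroblasts are a source of several of these inhibitors.

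Levels are CPM, that is, reads relative to the size of the library, with TMM factors, which correct for differences in library composition. Gene counts came to between 34486400 and 38126860 per library. SMARCA4, which encodes BRG1, stood at 167 ± 17.1 CPM in controls and 162 ± 2.82 CPM in the libraries labelled BRG1 (SD, n = 2), so its reads do not check the label, and directions are those of the labelled libraries. The share of reads that hit no annotated gene was 6.11% and 7.34% in the controls against 10.3% and 10.5% in the libraries labelled BRG1, and its part in the results was not tested.

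Of the 9 antagonists 8 had enough reads to be tested. Past an adjusted p of 0.05 in edgeR's quasi-likelihood test over all 14617 genes tested, 7 were higher in the libraries labelled BRG1 and 1, DKK3, was lower, and DKK1 was too sparse to test. Over all genes tested 21.0% were higher and 23.6% lower by the same threshold, 44.6% in all. The 2 groups did not overlap in any of the 8 tested antagonists, 7 of them higher and 1 lower. Over all genes the share without overlap was 73.2%, made up of 37.5% higher and 35.7% lower. The choice of members used this contrast, so nothing is read from these counts. DKK2 reached the test only through its reads in the libraries labelled BRG1. The median log2 fold change over the 8 tested antagonists was 1.76, beside 0.02 over all genes tested. A change in RNA per cell and a change in the share of cells that express a gene cannot be told apart in these bulk libraries.

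**Figure D1:**
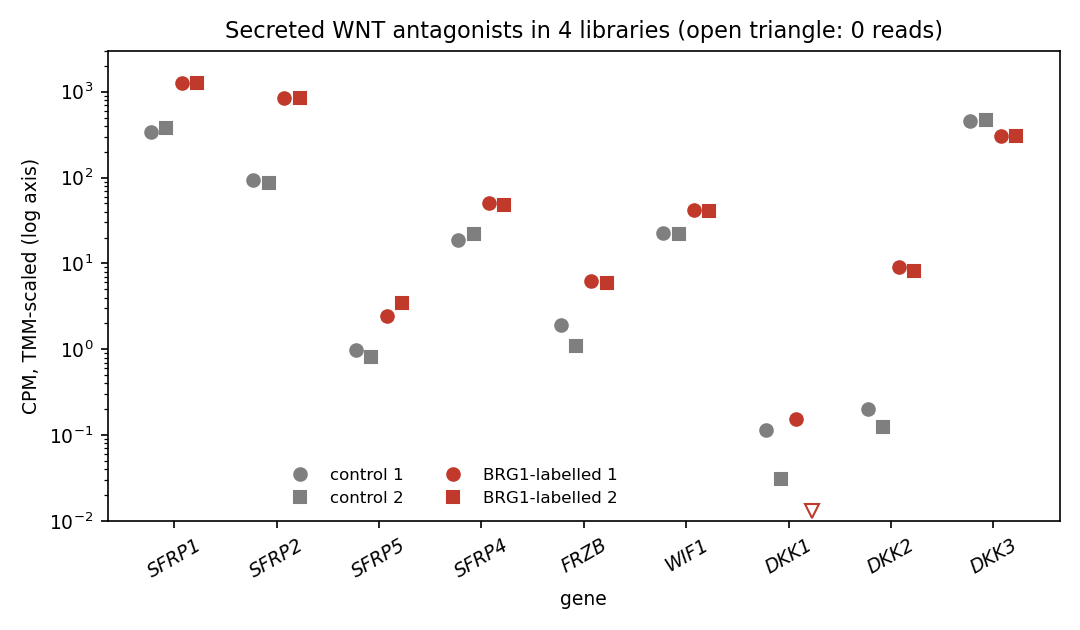
Level of each antagonist in each of the 4 libraries, in TMM-scaled CPM on a log axis, with controls in grey and libraries labelled BRG1 in red. In 7 genes both red points lie above both grey points, in DKK3 they lie below (306 and 304 against 451 and 463 CPM), and DKK1 is near 0 in every library.

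SFRP1, SFRP2 and SFRP5 form one branch of the secreted frizzled-related proteins. SFRP1 (ENSSSCG00000025822; Sscrofa11.1 chromosome 17, 10436414 to 10489773), a WNT-binding protein of mesenchymal cells, was at 337 and 382 CPM in controls 1 and 2, from 11796 and 12280 reads. In the libraries labelled BRG1 it was at 1262 and 1248 CPM, from 49496 and 46705 reads. Both labelled libraries lay at least 3.26-fold above both controls. The log2 fold change of SFRP1 was 1.80 ± 0.11 (SE), with a 95% interval from 1.56 to 2.05. The controls differed by 1.13-fold and the labelled libraries by 1.01-fold, a spread that may be technical.

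SFRP2 (ENSSSCG00000009004; chromosome 8, 75337311 to 75345926), a WNT-binding protein made by dermal fibroblasts, was at 93.3 and 86.0 CPM in the controls. It reached 855 and 840 CPM in the libraries labelled BRG1, on 33536 and 31441 reads against 3266 and 2761. Both labelled libraries lay far above both controls. Its log2 fold change of 3.24 ± 0.11 (95% interval 2.997 to 3.485), or 9.45-fold, ranked 113 from the top among all 14617 genes tested.

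SFRP5 (ENSSSCG00000010529; chromosome 14, 109120382 to 109125655), the third gene of this branch, rested on few reads. Controls held 34 and 26 reads (0.97 and 0.81 CPM) and the libraries labelled BRG1 96 and 129 (2.45 and 3.45 CPM). The groups did not overlap, but the labelled libraries differed from each other by 1.41-fold. The log2 fold change was 1.72 ± 0.40, with an interval from 0.87 to 2.58 that is wider than that of SFRP1 or SFRP2. It missed the threshold when library 2 labelled BRG1 was left out (log2 fold change 1.45; adjusted p = 0.0521, edgeR quasi-likelihood test), which was the only one of 104 refits of the 8 tested antagonists, 13 for each gene, to end a call.

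SFRP4 and FRZB form the other branch. SFRP4 (ENSSSCG00000035299; chromosome 9, 108404314 to 108414335) was at 18.9 and 22.1 CPM in controls and at 50.1 and 47.7 CPM in the libraries labelled BRG1. The groups were separated by at least 2.16-fold, and the log2 fold change was 1.26 ± 0.13 (95% interval 0.99 to 1.53). FRZB (ENSSSCG00000016018; chromosome 15, 88332856 to 88377275), a WNT-binding protein that also occurs in developing cartilage, was at 1.94 and 1.09 CPM in controls and at 6.17 and 5.96 CPM in the libraries labelled BRG1. The 68 and 35 reads in controls 1 and 2 have exact 95% Poisson intervals of 52.8 to 86.2 and 24.4 to 48.7, so the controls differ by more than counting error. Here, as in the other members, these intervals cover counting error only. FRZB stood 1.99 ± 0.30 higher on the log2 scale, and that value depended on the control used: it was 2.47 without control 1 and 1.62 without control 2.

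WIF1 (ENSSSCG00000030998; chromosome 5, 29450442 to 29543913), which binds WNT proteins directly, had the smallest of the 7 rises and narrow replicate spread. It was at 22.5 and 21.8 CPM in controls and at 41.9 and 41.3 CPM in the libraries labelled BRG1. The log2 fold change was 0.91 ± 0.12 (95% interval 0.65 to 1.16), or 1.88-fold.

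Of the 3 Dickkopf genes, DKK2 and DKK3 moved in opposite directions, and DKK1 was too sparse to test. DKK2 (ENSSSCG00000032094; chromosome 8, 114862056 to 114974327), which can inhibit or, in some settings, activate signalling through LRP6, was almost without reads in controls. Controls 1 and 2 held 7 and 4 reads (0.20 and 0.12 CPM), and the libraries labelled BRG1 held 358 and 307 (9.13 and 8.20 CPM). The fitted log2 fold change of 5.70 ± 0.36 placed DKK2 at rank 19 from the top of all genes tested. With 11 control reads the size is loosely bounded: the ratio of pooled, scaled reads was 52.9 with an exact 95% interval from 29.4 to 107, which covers counting error only.

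DKK3 (ENSSSCG00000013401; chromosome 2, 47385244 to 47444664), the divergent member of the family whose part in WNT signalling is less settled, went the other way. It was at 451 and 463 CPM in controls and at 306 and 304 CPM in the libraries labelled BRG1, on between 11396 and 15779 reads. Both labelled libraries lay below both controls, by at least 1.47-fold. The log2 fold change was -0.58 ± 0.10, with a 95% interval from -0.80 to -0.36. Scaled by library size alone it was -0.36 and still past the threshold.

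DKK1 (ENSSSCG00000010428; chromosome 14, 97487854 to 97490118), the best known co-receptor antagonist of the family, had 4 and 1 reads in controls and 6 and 0 in the libraries labelled BRG1. The ratio of pooled, scaled reads was 1.05 with an exact 95% interval from 0.27 to 4.35, so these reads leave both the direction and the size of any difference undetermined at this depth. For library 2 labelled BRG1 a count of 0 allows up to 3 reads, or 0.08 CPM.

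**Figure D2:**
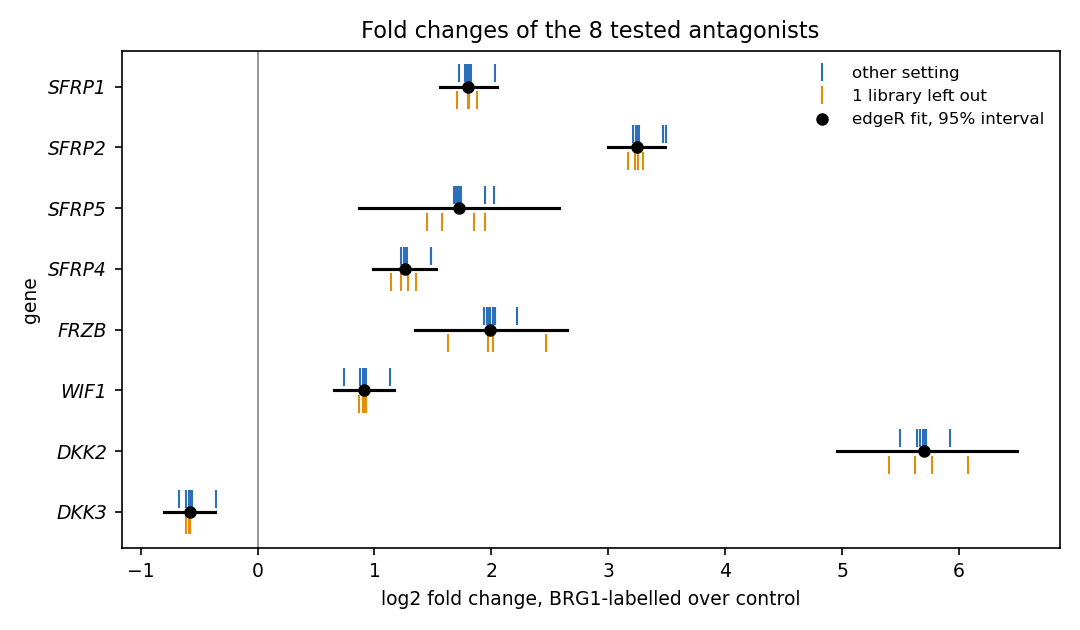
Log2 fold change of the 8 tested antagonists, libraries labelled BRG1 over controls: black points are the edgeR fit with 95% intervals, blue ticks other settings and orange ticks fits with 1 library left out. Every tick lies on the same side of 0 as its black point. The ticks of FRZB with 1 library left out run from 1.62 to 2.47.

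Ratios of reads between antagonists within a library do not depend on how libraries are scaled, and gene length cancels when a ratio is compared between libraries. SFRP2 reads per SFRP1 read rose from 0.28 and 0.22 in controls to 0.68 and 0.67 in the libraries labelled BRG1, so SFRP2 gained on SFRP1 by 1.44 on the log2 scale. DKK3 reads per SFRP1 read went from 1.34 and 1.21 to 0.24 and 0.24, a change of -2.39 on the log2 scale. SFRP4 per SFRP1 read went from 0.056 and 0.058 to 0.040 and 0.038, and WIF1 per SFRP1 read from 0.067 and 0.057 to 0.033 and 0.033. Members that rose therefore differed in how much they rose, with SFRP1 ahead of SFRP4 and WIF1 and behind SFRP2. WIF1 per SFRP4 read, at 1.19 and 0.99 in controls and 0.84 and 0.87 in the labelled libraries, left a gap between the groups that was narrower than the spread between the controls.

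Summed over the 9 genes, antagonist reads came to 926 and 978 CPM in controls and to 2533 and 2499 CPM in the libraries labelled BRG1. That sum weights long transcripts and abundant genes most. Without SFRP1 and SFRP2 the other 7 genes summed to 495 and 509 CPM in controls and to 416 and 411 CPM in the labelled libraries. The TMM-scaled sum of the rest was thus lower there, with DKK3 as its main part in every library. As a share of unscaled gene counts, all 9 took 0.085% and 0.091% of reads in controls and 0.274% and 0.270% in the libraries labelled BRG1. Without SFRP1 and SFRP2 that share was 0.0455% and 0.0474% in controls and 0.0451% and 0.0444% in the labelled libraries. On that share the gap between the groups was narrower than the spread between the controls, so the drop in the rest depended on the scaling. Of the tested genes in the rest only DKK3 was lower, while SFRP4, SFRP5, FRZB, DKK2 and WIF1 were each higher.

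**Figure D3:**
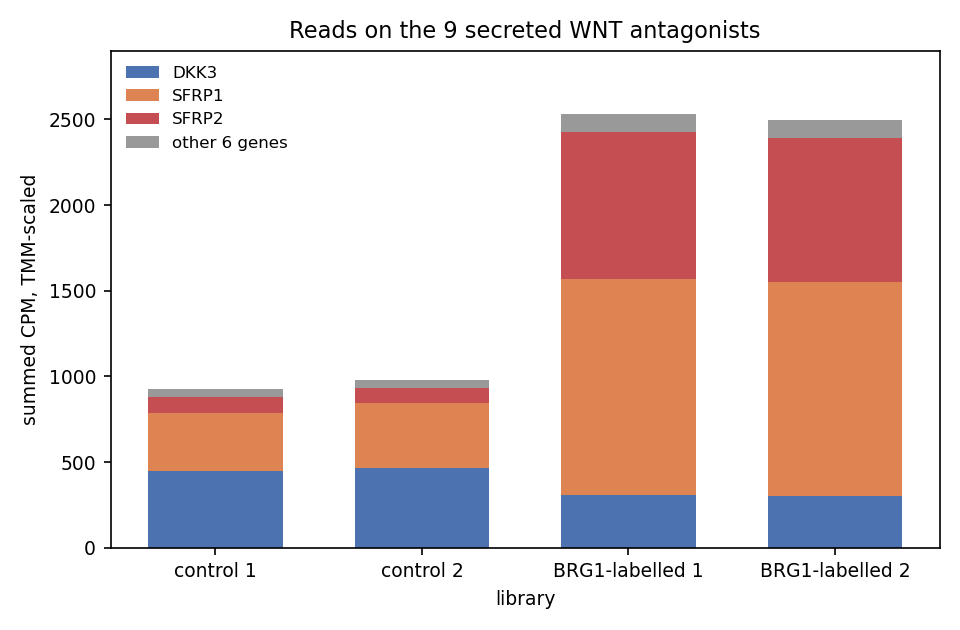
Summed TMM-scaled CPM of the 9 antagonists in each library, stacked by gene, from 0. The totals are 926, 978, 2533 and 2499 CPM. Segment heights compare 1 gene between libraries, not genes with each other, since longer transcripts collect more reads.

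The 9 genes lie on 7 chromosomes in RefSeq's table of Sscrofa11.1, with SFRP2 and DKK2 both on chromosome 8 and DKK1 and SFRP5 both on chromosome 14. Among the nearest named protein-coding genes on each side, the pattern was mixed, where 44.6% of all genes tested passed in either direction. The neighbours ZMAT4 of SFRP1, NME8 of SFRP4, MBL2 of DKK1 and GIMD1 of DKK2 were too sparse to test. MICAL2, next to DKK3, was not matched by symbol. Gaps ran from 0.12 kb (GOLGA7B next to SFRP5, too sparse to test) to 493 kb (PAPSS1 next to DKK2). Next to SFRP4, EPDR1 starts 3.66 kb away and was also higher (32.9 to 78.9 CPM; log2 fold change 1.26 ± 0.11; adjusted p = 2.46e-07, edgeR). On 1 side of SFRP2, DCHS2, a large cadherin 400 kb away, was higher (2.35 ± 0.15; adjusted p = 1.73e-08, edgeR). The Toll-like receptor TLR2, 70.3 kb away on the other side, was lower (-0.89 ± 0.13; adjusted p = 8.56e-05, edgeR). ZFYVE27, 0.53 kb from SFRP5, was lower (-0.73 ± 0.11; adjusted p = 0.000105, edgeR). On 1 side of FRZB, WIF1 and DKK1 the neighbour was higher: DNAJC10 (0.68 ± 0.10; adjusted p = 7.40e-05, edgeR), TBC1D30 (1.49 ± 0.38; adjusted p = 0.00501, edgeR) and PRKG1 (0.63 ± 0.16; adjusted p = 0.00506, edgeR). The neighbours GOLGA7 of SFRP1 (-0.12 ± 0.11), PAPSS1 of DKK2 (0.02 ± 0.10), USP47 of DKK3 (0.14 ± 0.10), NCKAP1 on the other side of FRZB (0.22 ± 0.10) and LEMD3 on the other side of WIF1 (0.02 ± 0.14) did not pass. The sources used here do not say whether reads were counted by strand, so reads at the edges of close neighbours cannot be assigned with certainty.

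The genes with the most similar profile were taken as those with the smallest Euclidean distance of log2 CPM deviations over the 4 libraries. This distance is a likeness of group difference and replicate spread alone. The 0.5 CPM added before the log shrinks the differences of genes with few reads, so their fitted fold changes can differ. For SFRP1 these were ISLR (83.1 ± 8.44 to 279 ± 1.06 CPM, SD, n = 2) and the collagen-crosslinking enzyme LOX. For SFRP2 they were the tropomyosin gene TPM1 and the matrix gene NPNT (0.90 ± 0.10 to 11.3 ± 0.79 CPM). For DKK2 they were ELN, which encodes elastin, and ST8SIA2 (0.20 ± 0.16 to 7.31 ± 1.29 CPM). Their fitted log2 fold changes were 4.22 ± 0.19 and 5.11 ± 0.42, beside 5.70 ± 0.36 for DKK2. For SFRP4 they were ITGB4 and LRIG3, for FRZB LURAP1L and TM4SF1, and for WIF1 B3GNT2 and PPP1R12B. For SFRP5 they were STK26 and a U6 small nuclear RNA gene, whose many copies make its count uncertain. DKK3, the 1 antagonist that was lower, was closest to DPP3 (49.5 ± 1.17 to 32.8 ± 0.29 CPM) and ARAF.

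Gene span moved with the fold change over all genes: the median log2 fold change ran from -0.35 in the shortest decile of genes to 0.29 in the longest. SFRP2 (8.62 kb) and SFRP5 (5.27 kb) lie in decile 2, whose median was -0.28, and SFRP4 (10.02 kb) in decile 3, with -0.20. Those 3 genes were higher, but members were chosen on this contrast, so nothing is read from how they stand beside these medians. DKK2 (112 kb) and WIF1 (93.5 kb) lie in decile 9, with a median of 0.21, and SFRP1, FRZB and DKK3 in decile 7, with 0.06. With each library's trend with span removed, the log2 fold changes were 3.49 for SFRP2, 2.02 for SFRP5, 1.48 for SFRP4, 0.74 for WIF1 and -0.68 for DKK3, and all 8 calls held.

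Secreted frizzled-related proteins and WIF1 bind WNT ligands. Of 10 WNT ligand genes tested 3 fell and 1 rose, with a median log2 fold change of -0.43, against 23.6% lower and 21.0% higher over all genes tested, so the share that fell is near the background. WNT5A, a ligand of the non-canonical branch, fell from 598 ± 73.2 to 256 ± 7.07 CPM (log2 fold change -1.22 ± 0.11; adjusted p = 7.25e-07, edgeR). WNT7B fell from 7.30 ± 0.07 to 2.01 ± 0.27 CPM and WNT6 from 2.65 ± 0.56 to 0.13 ± 0.08 CPM, the latter on 3 and 7 reads in the libraries labelled BRG1, while WNT9A rose from 3.46 ± 0.97 to 7.22 ± 0.68 CPM. PORCN, which adds the lipid that WNT proteins need, fell by 1.59 ± 0.11 on the log2 scale, and WLS, which carries them to the cell surface, fell by 1.40 ± 0.11.

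Receptor genes that passed were all higher. Of 16 receptor and co-receptor genes tested 8 rose and 0 fell (median 0.58), against 21.0% higher and 23.6% lower over all genes. The rises include FZD1 (1.04 ± 0.11), FZD7 (1.03 ± 0.12), FZD2 (0.87 ± 0.13) and the WNT5A receptor ROR2 (0.88 ± 0.11). Of the Dickkopf co-receptors, LRP6 rose from 62.2 ± 14.6 to 99.0 ± 1.61 CPM (0.67 ± 0.13), a value that was 0.44 without control 1 and 0.92 without control 2 and passed in both. LRP5 was at 112 ± 18.6 and 93.8 ± 0.25 CPM and did not pass (-0.25 ± 0.12), with -0.09 without control 2. It did pass as lower without a filter on low counts (-0.29) and with the span trend removed (-0.46). Without control 1 it also passed as lower (-0.42), with the spread then taken from the labelled libraries alone. KREMEN1, the partner of Dickkopf proteins at LRP6, rose from 24.2 ± 2.13 to 49.8 ± 1.48 CPM (1.04 ± 0.12), and KREMEN2 had 0 reads in every library, which allows up to 3 reads, or 0.09 CPM, in each. KREMEN1 was 1 of 3 rises among 6 tested genes of receptor turnover and R-spondins, with 0 falls (median 0.53), beside the same 21.0% and 23.6% of all genes. The other 2, LGR4 (0.36 ± 0.11) and ZNRF3 (0.77 ± 0.25), no longer passed without library 1 labelled BRG1 or with the span trend removed. LGR4 also missed the threshold without library 2 labelled BRG1 (adjusted p = 0.137, edgeR), and ZNRF3 without control 1 (0.41; adjusted p = 0.113, edgeR), against 1.22 without control 2.

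Other extracellular inhibitors outside the 9 genes were mostly unread or did not pass. Of 6 tested 2 rose and 0 fell (median 0.59), where 21.0% of all genes were higher and 23.6% lower. These were IGFBP4, an insulin-like growth factor binding protein that also interferes with WNT receptors (2315 ± 138 to 4179 ± 44.4 CPM), and the membrane protein APCDD1 (0.52 ± 0.28 to 2.27 ± 0.65 CPM), which missed the threshold without library 2 labelled BRG1 (adjusted p = 0.0570, edgeR). SOSTDC1 and CER1 had 0 reads in every library, and the Dickkopf gene DKK4 at most 1.

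Among feedback and target genes of canonical signalling 6 of 13 tested rose and 1 fell (median 0.71), or 3 rose without library 1 labelled BRG1. Over all genes 21.0% were higher and 23.6% lower. The lists overlap: ZNRF3, 1 of these 6 rises, and RNF43 are also counted among the turnover genes. NOTUM is also counted among the other extracellular inhibitors. NKD1, which binds Dishevelled and limits signalling, rose from 8.18 ± 2.31 to 32.1 ± 0.73 CPM (1.98 ± 0.18), and AXIN2, a scaffold of the beta-catenin destruction complex, from 20.2 ± 0.22 to 41.3 ± 1.95 CPM (1.03 ± 0.12). CCND1, a G1 cyclin, rose by 0.90 ± 0.13 on the log2 scale. MYC was the 1 fall (-0.41 ± 0.10), and it missed the threshold with scaling by library size alone (-0.19), with the span trend removed (-0.11) and without either library labelled BRG1. Of 20 intracellular genes tested 10 rose and 6 fell (median 0.26), with 3 falls without either labelled library or with library size alone. Against 21.0% higher and 23.6% lower over all genes, the share that fell is near the background. The Groucho corepressors were split: TLE2 (1.18 ± 0.13) and TLE1 (1.25 ± 0.15) rose, TLE3 fell (-0.51 ± 0.12), and TLE4 did not pass (-0.31 ± 0.14). CTNNB1, which encodes beta-catenin, did not pass (0.17 ± 0.10). It passed as higher with library size alone (0.39) and without either control (0.16 and 0.15).

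**Figure D4:**
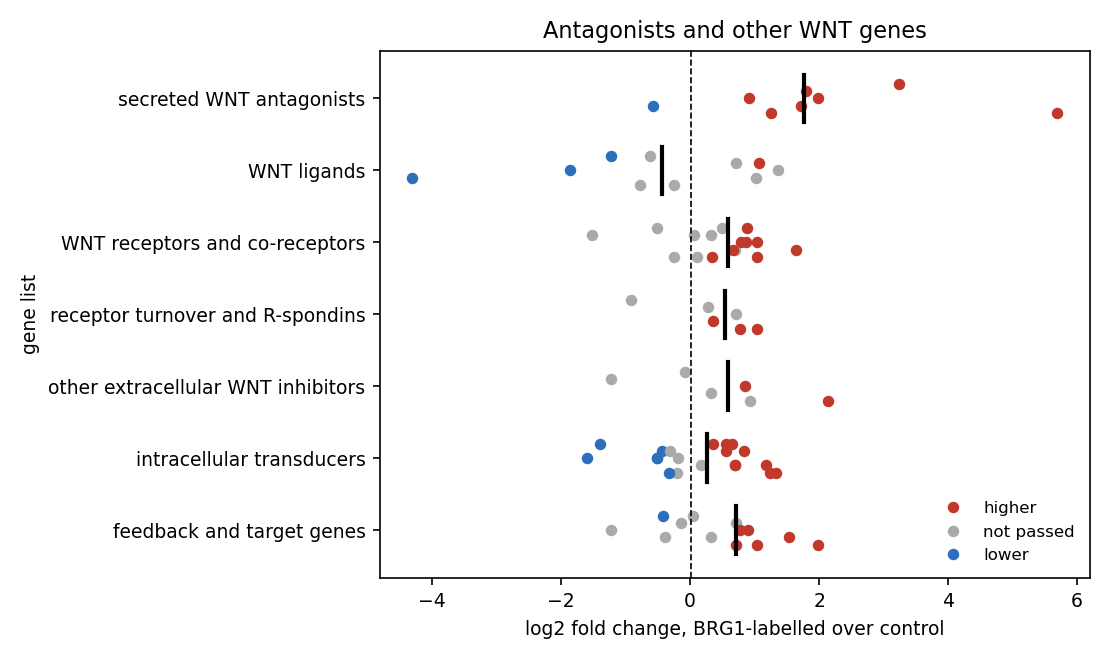
Log2 fold change, libraries labelled BRG1 over controls, of each tested gene in 7 lists: red passed as higher, blue as lower, grey did not pass. Thick bars are list medians and the dashed line is the median of all genes tested (0.02). The antagonists have a median of 1.76 and the WNT ligands -0.43.

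Fibroblast markers were abundant in all 4 libraries. Of 11 fibroblast markers tested 7 rose and 0 fell, against 21.0% and 23.6% of all genes, and their summed level was 29013 and 34053 CPM in controls and 52388 and 52800 CPM in the libraries labelled BRG1. DCN, a matrix proteoglycan, rose from 509 ± 17.8 to 1349 ± 1.40 CPM. The 4 that did not pass, COL3A1 (7081 to 6113 CPM), VIM (6839 to 5657), S100A4 (759 to 623) and PDGFRB (686 to 590), had lower means in the libraries labelled BRG1, without overlap between the groups in the first 3. Of 6 pericyte and smooth muscle markers 5 were tested and 3 rose, with sums of 21.7 and 22.5 against 174 and 191 CPM, led by ACTA2, while RGS5, which marks pericytes, had at most 6 reads. The part of marker genes in the antagonists' differences was not tested. Many markers of other cell types had no reads: KRT5 and KRT8 (epithelial), TEK (endothelial), PTPRC (immune), MYOD1 and PAX7 (skeletal muscle), IBSP (bone) and ADIPOQ and FABP4 (adipocyte) had 0 reads in all 4 libraries. Others in these lists were read at low levels and changed. PECAM1 (endothelial) rose from 2.86 ± 0.53 to 6.68 ± 0.53 CPM and LPL (adipocyte) from 1.59 ± 0.31 to 7.27 ± 2.31 CPM. EPCAM (epithelial) fell from 0.51 ± 0.16 to 0.05 ± 0.04 CPM. VWF (endothelial) had a lower mean in the labelled libraries (1.75 ± 0.84 to 0.72 ± 0.01 CPM), without overlap between the groups, and did not pass. PPARG (adipocyte) did not pass either (0.85 ± 0.35 to 0.68 ± 0.01 CPM). The lists summed to at most 0.96 CPM for 6 epithelial, 7.77 for 5 endothelial, 4.30 for 4 immune, 1.05 for 5 skeletal muscle and 9.56 for 5 adipocyte markers in any library. Sums of 7 cartilage and bone markers lay between 48.6 and 68.7 CPM, mostly RUNX2 reads, and those of 5 melanocyte and Schwann cell markers between 8.31 and 17.1 CPM, mostly MITF reads.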

How the data were processed

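Gene counts of 4 libraries were analysed, grouped by title. The deposited values are raw read counts for each Ensembl gene. Build Sscrofa11.1 and the tools STAR, FastQC, SAMtools, edgeR, DESeq2 and Cufflinks are named per the submitters' processing notes; the read counter, strand setting and annotation release are not given in the sources used here. Rows naming no gene were left out of library sizes. Counts were fitted in R 4.3.3 with edgeR 4.0.16 (filterByExpr, minimum count 10 and minimum total 15; TMM factors 0.918, 0.931, 1.08 and 1.08; quasi-likelihood F test; Benjamini-Hochberg over 14617 genes; prior count 0.125). SE is the unshrunk log2 fold change over the square root of F. The test was tried on simulated counts for these 14617 genes: it called 79 of 100 genes with a 2-fold change, 97 of 100 with a 4-fold change, and 10 genes wrongly. There every gene had the same dispersion and 200 genes were changed. In the real data 44.6% of genes passed and the spread differed between genes and groups, so these rates are not those of the real data.

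Members and lists were chosen with earlier results of these data known. Named beside the 9 genes are SMARCA4, up to 4 genes of each WNT list with the smallest adjusted p, list genes with a mean log2 CPM of at least 5, nearest profiles (0.5 CPM added before the log) and nearest neighbours; not all are printed, and SOSTDC1, CER1, KREMEN2, DKK4 and marker genes were added after their values were seen. WNT4, TRABD2A, TCF7L1, PYGO2, THY1 and KRT14 were not matched by symbol. Symbols of 223 genes came from a gene name table, and positions and spans, matched by symbol for 77.5% of genes tested and all 9 antagonists, from RefSeq. Replicates differed by more than counting noise (chi-square per degree of freedom 37.2 in controls and 5.33 in the others). Alternatives used DESeq2 1.42.0, limma-voom (limma 3.58.1), other scalings and filters, a replicate block, removal of the span trend, and each library left out. Planned promoter motif searches were not run, since no sequences were used here.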

Additional observations from a re-analysis of the deposited data

How the results depend on the processing

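Under 13 alternatives each, all 8 tested antagonists kept their direction, and the counts of 7 higher and 1 lower held except without library 2 labelled BRG1 (6 and 1, SFRP5 lost). With the replicate number as a block the counts were again 7 and 1, and 3189 and 3505 over all genes; same-numbered libraries did not deviate together (correlation -0.01), so the numbers are not taken as pairs. Library size as the only scaling moved the median over all genes from 0.02 to 0.24, and 4820 genes were higher and 2139 lower against 3068 and 3444. That scaling also gave 2 rises of WNT ligands, 3 falls of intracellular genes and 0 falls of targets, and turned SMARCA4 (0.18), TPBG (0.14), AXIN1 (0.040) and CSNK1A1 (0.022) to positive values. The span trend removed gave 1 fall of receptors, 1 rise of turnover genes, 0 falls of targets and 0.26 for TPBG. A filter of 1 CPM in 2 libraries gave 2 rises of ligands, and no filter 1 fall of receptors. With 1 library left out, where the lone library of a group is assumed to vary like the other group, genes higher ranged from 1908 to 3673 and lower from 2177 to 4321. Antagonists higher ranged from 6 to 7, and ligands higher from 1 to 2. Receptors higher ranged from 6 to 10 and lower from 0 to 1, turnover genes higher from 1 to 3, and other inhibitors higher from 1 to 2 and lower from 0 to 1. Intracellular genes higher ranged from 8 to 11 and lower from 3 to 8, targets higher from 3 to 5 and lower from 0 to 2, and SMARCA4 from -0.15 (adjusted p = 0.0251, edgeR, without control 1) to 0.048 (without control 2). The SE of SFRP1 was 0.04 without either control and 0.23 without either library labelled BRG1, beside 0.11 in the main fit. Passes with 1 library left out therefore rest on the spread of the group that kept 2. What else shapes these shifts was not tested. Depth limits DKK1, SFRP5 and the control level of DKK2.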
